A study of Mus musculus with 16 samples.

Results

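The flavin monooxygenase genes examined here were Fmo1, Fmo2, Fmo4 and Fmo5, and the open chromatin in and around them was compared across both sexes and 2 strains of mice in liver. The features compared were DNase hypersensitive sites (DHS), the stretches of chromatin that DNase I cuts most readily, in a window from 20 kb upstream to 20 kb downstream of each gene in the mm9 assembly. DHS of different lists with 1 bp or more in common were merged into 1 region, and 19 of 51482 regions lay in these windows. The mice were C57BL/6J (B6), the laboratory strain of the reference genome, and CAST/EiJ (CAST), a strain derived from wild mice. Both sexes were 8 weeks old, without any treatment named in the labels, and liver nuclei were digested with 32 U of DNase I. There were 16 libraries, 4 for each sex and strain, but the authors pooled the 4 libraries of a group before they called DHS, so each group is represented by a single list with no replicate error. No test between groups was therefore possible, and the 95% intervals below cover the counting of reads at a summit and not the difference between animals.

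Flavin monooxygenases are flavin-containing enzymes of the endoplasmic reticulum that use NADPH and oxygen to oxidize nitrogen and sulfur atoms of drugs, toxicants and dietary amines. Fmo1 is a broad-specificity enzyme of drug and amine oxidation, Fmo2 is best known as the lung form, Fmo4 is the least characterized of these enzymes, and Fmo5 is an abundant liver form that can also carry out Baeyer-Villiger oxidation of ketones. In mouse liver, Fmo1 is known to be more abundant in females than in males. RNA was not analysed here, and the values below describe chromatin only.

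The chromosome 1 genes lie side by side and are transcribed from the minus strand. Fmo4 (ENSMUSG00000026692.6) occupies chr1:164724014-164744103, Fmo1 (ENSMUSG00000040181.8) chr1:164759692-164796679 and Fmo2 (ENSMUSG00000040170.7) chr1:164804448-164828857. Their windows overlap and together span 144.8 kb. These windows held 12 regions, named C1 to C12 in the order of their coordinates. Fmo5 (ENSMUSG00000028088.8) lies apart from them on the plus strand at chr3:97432727-97459205, and its window held 7 regions, named F1 to F7. Each region held 1 peak in each list in which it was present.

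The lists held between 24888 DHS (female CAST) and 39562 DHS (male CAST), and the genome-wide background, a measure of read depth, ranged from 7.94 reads in CAST females to 15.4 reads in B6 males. At that background, the lowest fold enrichment a list contained was 1.90 in B6 males, 1.94 in B6 females, 1.90 in CAST males and 2.24 in CAST females, and in regions of higher local background the limit differs. A region without a peak in a list was thus not past that list's threshold, which does not show that its chromatin was closed. Start-site DHS, meaning peaks within 2.5 kb of an annotated start, were present at all 8 hepatocyte markers in all 4 lists and at none of the 4 kidney tubule markers. At sinusoidal endothelial markers they numbered 5 of 5 in B6 males, 3 in B6 females, 1 in CAST males and 1 in CAST females. At the other marker lists, in the order male B6, female B6, male CAST and female CAST, they numbered 0, 0, 1 and 0 of 5 for Kupffer cells, 1, 1, 1 and 0 of 5 for stellate cells, 2, 1, 2 and 1 of 5 for bile duct and 1, 1, 2 and 1 of 4 for lung epithelium. Whether these differences have a part in the results below was not tested, and in whole liver a change in the number of cells of a type cannot be told apart from a change within its cells.

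Of the regions described below, 5 that differed between lists are shown first by their sequence, as 201 bases of the mm9 plus strand centred on the male CAST summit. This is the B6 reference sequence, and CAST variants were not used here. C1, C2 and C10, which also differed, are not printed because their windows overlap untranslated sequence, and C5 is not printed because its summits lay far apart between lists. C4, C7 and F3 also differed and are not printed. Every region printed was present in both CAST lists. Capitals mark matches, on either strand, to the letters TTCNNNGAA (STAT5), TGTTTAC (FOXA) or TTGGCA (the core of an NFI site). Regions C3 (chr1:164777914-164778114, an Fmo1 intron) and C9 (chr1:164802046-164802246, between the Fmo2 3′ end and the Fmo1 start) were found in both CAST lists and in neither B6 list. Region C6 (chr1:164790288-164790488, just upstream of the internal start sites of Fmo1) and region F4 (chr3:97420104-97420304, upstream of Fmo5) were absent from the female B6 list alone. Region C11 (chr1:164822119-164822319, an Fmo2 intron) was found in all 4 lists with the largest strain ratio among the regions that had a peak in both lists compared, 14 in males and 9 in females.
C3: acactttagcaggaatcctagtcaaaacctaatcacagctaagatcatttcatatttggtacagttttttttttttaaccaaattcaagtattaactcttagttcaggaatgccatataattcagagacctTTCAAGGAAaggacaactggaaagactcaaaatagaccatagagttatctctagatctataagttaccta
C9: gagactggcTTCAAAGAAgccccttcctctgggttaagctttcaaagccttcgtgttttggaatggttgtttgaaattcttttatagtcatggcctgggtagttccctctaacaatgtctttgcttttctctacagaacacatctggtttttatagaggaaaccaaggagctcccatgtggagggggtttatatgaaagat
C6: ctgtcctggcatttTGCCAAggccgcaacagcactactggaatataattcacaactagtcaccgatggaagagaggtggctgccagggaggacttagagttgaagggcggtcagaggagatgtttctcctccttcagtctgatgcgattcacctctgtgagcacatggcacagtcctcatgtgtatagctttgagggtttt
F4: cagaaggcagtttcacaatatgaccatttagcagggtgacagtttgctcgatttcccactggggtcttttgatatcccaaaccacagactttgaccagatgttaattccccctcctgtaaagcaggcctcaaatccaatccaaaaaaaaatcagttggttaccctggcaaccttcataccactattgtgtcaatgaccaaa
C11: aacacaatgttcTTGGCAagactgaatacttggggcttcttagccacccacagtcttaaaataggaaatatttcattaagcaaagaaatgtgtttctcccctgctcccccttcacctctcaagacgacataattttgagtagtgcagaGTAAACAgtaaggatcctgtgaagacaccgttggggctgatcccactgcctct

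Within each sex, the CAST list held more of the chromosome 1 regions than the B6 list. Of their 12 regions, 7 were in the male B6 list, 4 in the female B6 list, 12 in the male CAST list and 10 in the female CAST list. Of all 51482 regions, these lists held 74.6%, 50%, 76.2% and 47.3%, so the female lists held fewer regions throughout while the strains were close to each other. Fmo5 held nearly the same number in every list, with 7, 6, 7 and 6 of its 7 regions in the same order. The DHS of the chromosome 1 windows covered 4.56 kb in B6 males, 2.06 kb in B6 females, 7.80 kb in CAST males and 5.96 kb in CAST females, whereas those of the Fmo5 window covered 5.0, 3.50, 5.51 and 4.60 kb. By gene, and with regions in overlapping windows counted for each gene, the Fmo1 window held 10 regions, the Fmo2 window 8 and the Fmo4 window 1.

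**Figure D1:**
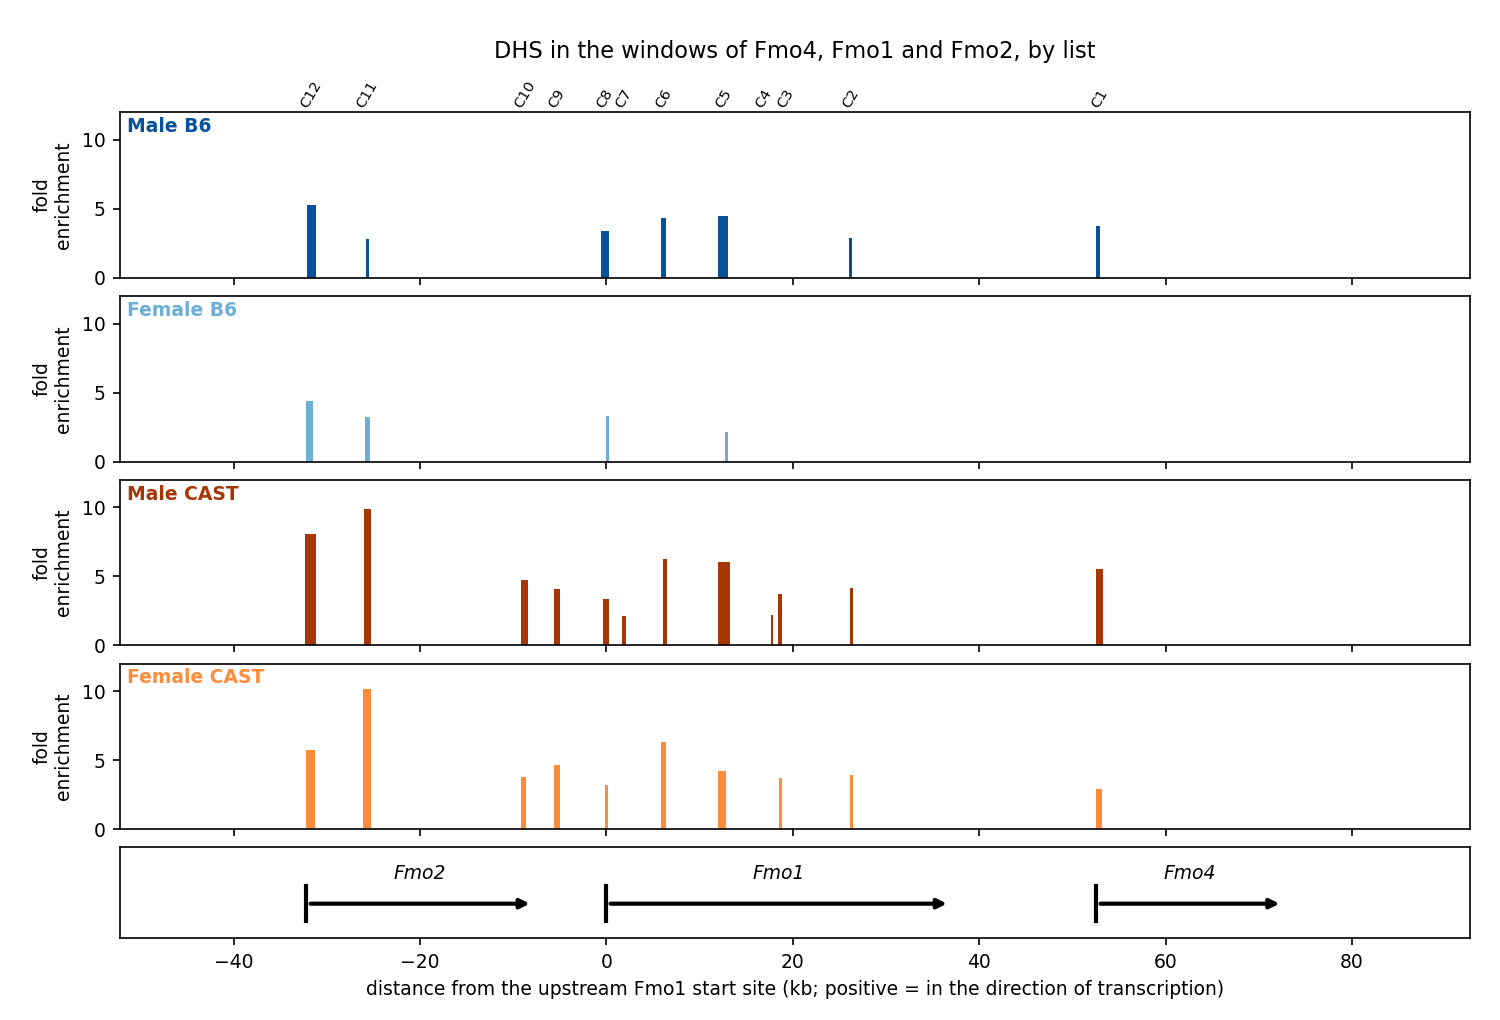
DHS in the joint window of Fmo2, Fmo1 and Fmo4, one panel per pooled list. The x axis is the distance from the upstream Fmo1 start site in kb in the direction of transcription, bars span each peak with the fold enrichment as height, C1 to C12 name the regions, and arrows show the genes from start to end; 12 regions appear in CAST males, 10 in CAST females, 7 in B6 males and 4 in B6 females.

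Fmo4 had a single region in its window, C1 (chr1:164743416-164744163), which overlapped untranslated sequence at its start sites. The fold enrichment of C1, the ratio of summit pileup to local background, was 3.76 in B6 males (2.90 to 4.81), 5.57 in CAST males (4.58 to 6.71) and 2.91 in CAST females (1.99 to 4.11), and the female B6 list held no peak there. The male CAST value was the highest, and its interval did not overlap that of female CAST. The summits lay within 53 bp of each other, 35 to 88 bp downstream of an annotated start.

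Fmo1 has an upstream start and a group of internal starts, described in turn. At the upstream start (position 164796679), region C8 (chr1:164796384-164797292) had nearly the same fold enrichment in every list, with 3.41 in B6 males (2.81 to 4.12), 3.27 in B6 females (2.56 to 4.12), 3.40 in CAST males (2.84 to 4.03) and 3.17 in CAST females (2.36 to 4.18). All 4 intervals overlapped. The internal starts lie further into the gene, the first of them at position 164790085, and region C6 (chr1:164790180-164790836) lay 95 bp upstream of it, within an intron of the longest transcript. Its summits were 303 to 359 bp upstream of that start. C6 was at 4.32 in B6 males (3.57 to 5.18), 6.29 in CAST males (5.50 to 7.17) and 6.33 in CAST females (5.13 to 7.73), with no peak in B6 females. Both CAST values lay above the male B6 value, though the female CAST interval just reached into the male B6 interval.

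Within the body of Fmo1, region C5 (chr1:164783461-164784709, intronic) was the only region besides C8 found in all 4 lists. Its fold enrichment was 4.49 in B6 males (3.65 to 5.47), 2.14 in B6 females (1.53 to 2.92), 6.07 in CAST males (5.13 to 7.13) and 4.21 in CAST females (3.13 to 5.55), so the female B6 value was the lowest and its interval overlapped none of the others. The summit of C5 moved by up to 612 bp between lists, more than in any other region of these genes, and the female B6 peak was 367 bp wide against 1249 bp in CAST males. The female B6 summit was at position 164783950, and those of the other lists lay between 164784276 and 164784562. Region C2 (chr1:164770200-164770693, overlapping the 3′ untranslated end of a shorter Fmo1 transcript) was at 2.87 in B6 males, 4.13 in CAST males and 3.91 in CAST females, and had no peak in B6 females.

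Other regions of Fmo1 were found only in CAST lists. C3, an intronic region, was at 3.74 in CAST males (2.84 to 4.83) and 3.69 in CAST females (2.56 to 5.16). C9, which lies 4978 bp upstream of the Fmo1 start and beyond the 3′ end of Fmo2, was at 4.08 (3.39 to 4.86) and 4.68 (3.64 to 5.93). Regions C4 and C7, both intronic, appeared in CAST males alone at 2.23 and 2.11, at percentiles 8.81 and 5.20 of that list. C3 and C9 were nearer to its middle, at percentiles 50 and 55.6, with −log10 q-values of 14.4 and 34.7.

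In both CAST lists, the strongest DHS in the windows of the 4 genes lay in Fmo2. Its intronic region C11 (chr1:164821940-164822755), with summits 6319 to 6396 bp downstream of the nearest Fmo2 start, had a fold enrichment of 2.80 in B6 males (2.07 to 3.71), 3.27 in B6 females (2.47 to 4.24), 9.91 in CAST males (8.77 to 11.2) and 10.2 in CAST females (8.69 to 11.8). The CAST values did not overlap the B6 values in either sex, and within each strain the male and female intervals overlapped. The summit pileups behind these values were 47, 54, 271 and 166 reads on local backgrounds of 16.1, 15.8, 26.4 and 15.4 reads. C11 thus ranked at percentile 32.7 of the male B6 list and at percentile 94.1 of the male CAST list. In the B6 lists the strongest DHS was F1 in the Fmo5 window, at 6.45 in males and 5.39 in females.

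The region over the Fmo2 start sites, C12 (chr1:164827817-164828957), had a fold enrichment of 5.31 in B6 males (4.37 to 6.39), 4.39 in B6 females (3.47 to 5.48), 8.10 in CAST males (7.05 to 9.25) and 5.72 in CAST females (4.55 to 7.11). Male CAST was the highest list, with an interval above those of both B6 lists and just reaching that of female CAST. Region C10 (chr1:164805102-164805818), in the 3′ untranslated part of Fmo2, was at 4.77 in CAST males (4.01 to 5.64) and 3.80 in CAST females (2.87 to 4.94) and had no peak in either B6 list. Its summits in the CAST lists were 7 bp apart.

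At Fmo5, neither the start-site region nor the intronic region differed between lists beyond the counting intervals. The region over its start sites, F5 (chr3:97431905-97433036), was at 3.12 in B6 males (2.60 to 3.72), 2.71 in B6 females (2.06 to 3.50), 3.52 in CAST males (2.95 to 4.16) and 3.41 in CAST females (2.61 to 4.39), and all 4 intervals overlapped. The intronic region F6 (chr3:97434839-97435965), with summits 2634 to 2717 bp downstream of a start, was stronger than F5 in every list, at 4.39 in B6 males (3.82 to 5.02), 3.79 in B6 females (3.06 to 4.63), 5.0 in CAST males (4.34 to 5.73) and 3.82 in CAST females (3.0 to 4.81). Its intervals also overlapped.

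The highest fold enrichment in the Fmo5 window belonged to F1 (chr3:97413317-97414586), which lies over the start of Chd1l, a chromatin remodelling enzyme, and not of Fmo5. F1 was at 6.45 in B6 males (5.72 to 7.25), 5.39 in B6 females (4.53 to 6.36), 7.44 in CAST males (6.57 to 8.40) and 6.55 in CAST females (5.39 to 7.88). F7 (chr3:97461599-97462688), over the start of Prkab2, a subunit of AMP-activated protein kinase, ranged from 4.51 in CAST females to 5.62 in B6 males. The intergenic regions F2 and F3 were weak in every list that held them, from 1.99 to 2.67 and from 1.95 to 2.89, and F3 had no peak in CAST females.

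Region F4 (chr3:97419808-97420651) lay 12076 bp upstream of Fmo5 and 5682 bp from the start of Chd1l. Its fold enrichment was 3.52 in B6 males (2.91 to 4.22), 5.95 in CAST males (5.09 to 6.92) and 5.28 in CAST females (4.21 to 6.55), with no peak in B6 females. The male CAST interval lay above the male B6 interval, and the male CAST and female CAST intervals overlapped.

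**Figure D2:**
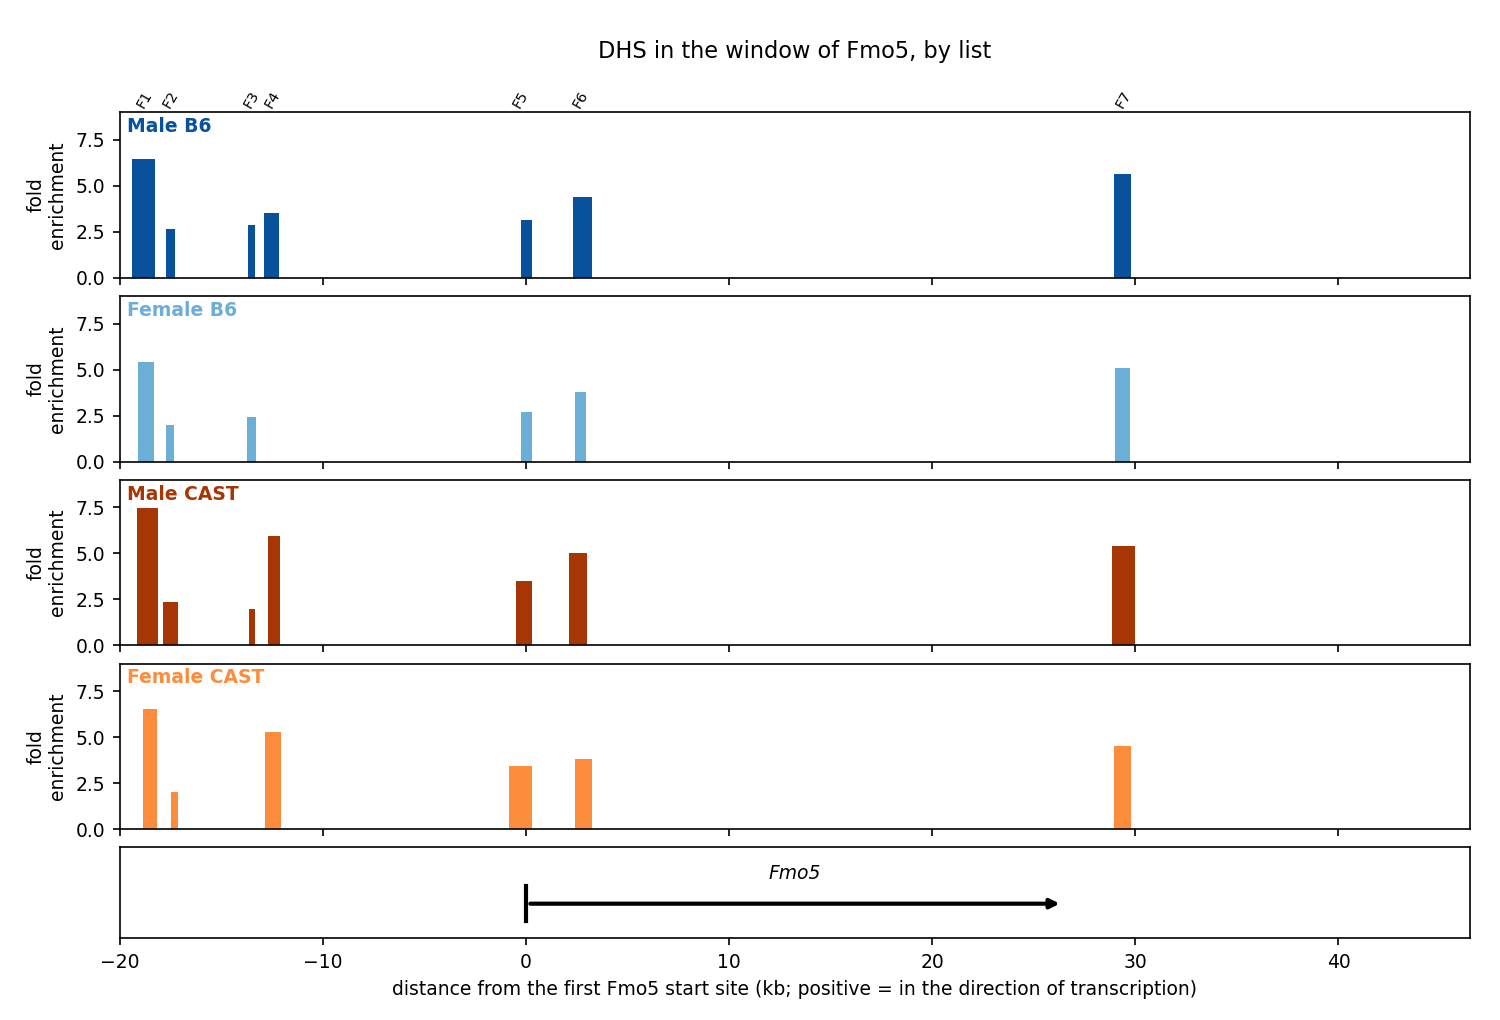
DHS in the Fmo5 window, one panel per pooled list. The x axis is the distance from the first Fmo5 start site in kb in the direction of transcription, bars span each peak with the fold enrichment as height, and F1 and F7 lie over the starts of Chd1l and Prkab2; F4 is missing from female B6 and F3 from female CAST, and the other regions are present in all 4 panels.

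**Figure D3:**
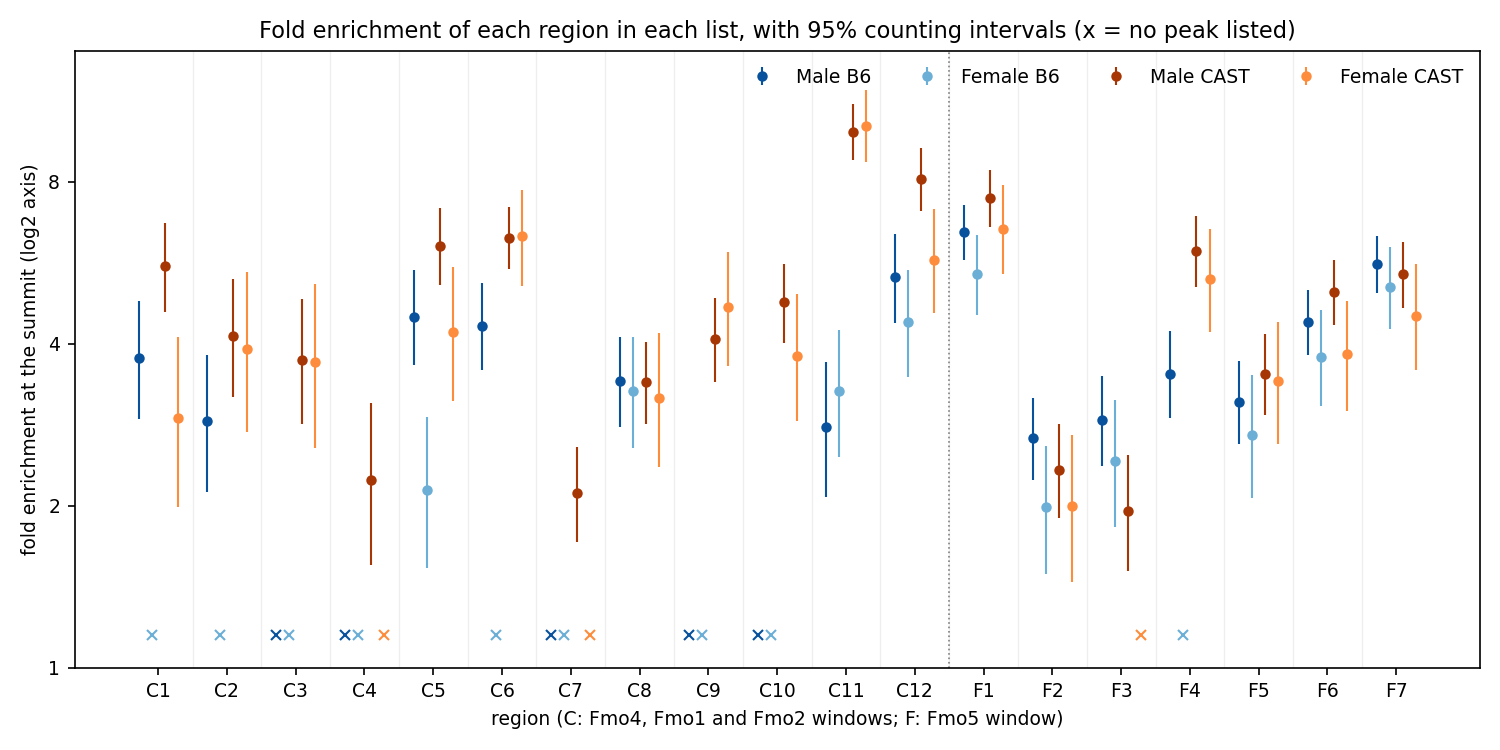
Fold enrichment at the summit (log2 axis) of each of the 19 regions in each pooled list, with 95% counting intervals as bars and crosses where a list held no peak. C11 stands at 9.91 and 10.2 in the CAST lists and at 2.80 and 3.27 in the B6 lists, while C8 lies between 3.17 and 3.41 in all 4.

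Counted over all 4 genes, 14 of the 19 regions were in B6 males, 10 in B6 females, 19 in CAST males and 16 in CAST females. Regions found in all 4 lists numbered 9 (47.4%), against 35.6% of all 51482 regions, and these 9 included the Fmo2 and Fmo5 start sites and the upstream Fmo1 start. With peaks kept at a −log10 q of at least 10, the order turned, with 4 of 17 regions (23.5%) against 37.5% of all regions. The Fmo4 start and the internal Fmo1 start group were among the 4 regions found in every list but female B6 (C1, C2, C6 and F4), a pattern shared by 21.1% of the regions of these genes and 4.73% of all regions. Another 3 regions (C3, C9 and C10, 15.8%) were in both CAST lists and in neither B6 list, against 3.62% of all regions. As few regions are counted and the chromosome 1 windows were chosen together, these shares are descriptions.

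Between the sexes in B6, 4 of the 14 regions were in the male list only (36.4% of all regions compared in B6) and 0 in the female list only (5.13%). In CAST, 3 of 19 regions were in the male list only (40.3%) and 0 in the female list only (3.9%). The shares of male-only regions at these genes, 28.6% in B6 and 15.8% in CAST, were below those of all regions at the threshold of the deposited lists. At a −log10 q of at least 10 the B6 share was above that of all regions, with 7 of 13 regions male-only (53.8%, against 41.7%) and 1 female-only (7.69%, against 0.592%). The CAST share was below that of all regions here too, with 5 of 16 regions male-only (31.2%, against 45.3%) and 0 female-only (0.325%). In the lists as deposited, the male-only regions were C1, C2, C6 and F4 in B6 and C4, C7 and F3 in CAST.

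Between the strains, 5 of 19 regions were CAST-only in males (20.9% of all regions compared in males) and 0 were B6-only (19.1%). In females, 7 of 17 regions were CAST-only (18.3%) and 1 was B6-only, F3 (22.6%). The CAST-only regions made up 26.3% of the regions of these genes in males and 41.2% in females, and all but F4 lay in the chromosome 1 windows. The female CAST list had the lowest genome-wide background of the 4, 7.94 reads. Regions in a single strain, CAST-only and B6-only together, numbered 5 in males and 8 in females. They numbered 4 and 9 in lists scaled to a common depth, and 7 and 8 in lists of equal size. In lists of equal size the male B6 list held 12 regions and the male CAST list 15, so the 7 included B6-only regions. The share of all regions was not taken for the scaled and equal-size lists. At a −log10 q of at least 10, 5 of 17 regions in males (18.1% of all) and 6 of 12 in females (16%) were CAST-only, and 1 in males (14.3%) and 1 in females (17.8%) were B6-only. The male and female comparisons within a strain and the strain comparisons within a sex use the same 4 lists and are not independent of each other.

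For regions with a peak in both lists, the ratio of fold enrichments was divided by the median ratio of all regions shared by the 2 lists, which was 1.32 for male over female in B6, 1.19 for male over female in CAST, 1.06 for CAST over B6 in males and 1.19 for CAST over B6 in females. A region was called past the fold at a centred ratio of 1.5 or more in either direction. The largest value among the regions of these genes with such a ratio was that of C11, 3.35-fold higher in CAST males than in B6 males (2.49 to 4.75) and 2.62-fold higher in CAST females than in B6 females (1.94 to 3.68). Of all regions shared by the lists, C11 ranked at the 99.9th percentile in males and at the 99.8th in females.

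In males, C11 and F4 (1.60-fold, 1.26 to 2.06) were higher in CAST past the fold, 2 of 14 shared regions, and F3 was lower (log2 ratio −0.64, −1.12 to −0.19). Over all shared regions, 6.68% were higher and 4.49% were lower past the fold. The median centred log2 ratio was 0.46 over the 7 shared regions of chromosome 1 and 0.09 over the 7 of the Fmo5 window. Of the 7 on chromosome 1, 6 were above 0 and 4 had an interval above 0. In the Fmo5 window 1 interval was above 0 and 1 was below. The share of all shared regions with an interval excluding 0 was not taken. The Fmo1 upstream start was the one chromosome 1 region below 0, at −0.09 (−0.46 to 0.30), and it was at 0.28 on the excess of reads over background described next. Where the reads in excess of the background were compared in place of the fold enrichment, 7 of the 14 regions were higher in CAST males past 1.5-fold and F3 was lower, but 15.8% of all shared regions were then higher and 11.9% lower. The regions that joined C11 and F4 on that measure were C1, C2, C5, C6 and C12, with log2 ratios from 0.66 to 1.12, and C11 was at 3.01. Without centring, F3 was at −0.57 and no longer past the fold, and C12 was at 0.61 and past it.

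In females, C11 and C5 (1.65-fold, 1.06 to 2.62) were higher in CAST past the fold, 2 of 9 shared regions (4.97% of all shared regions), and 0 were lower (3.42%). The female B6 peak of C5 ended at position 164783978, before the female CAST summit at 164784529, so the C5 ratio compares different points of a region joined at 1 bp. The median centred log2 ratio in females was 0.43 over the 4 shared regions of chromosome 1, with 2 intervals above 0. It was −0.23 over the 5 of the Fmo5 window, with 1 interval below 0 (F7, −0.43, −0.86 to −0.02). The Fmo2 start region was at a log2 ratio of 0.14 (−0.34 to 0.61) and the Fmo5 start region at 0.09 (−0.47 to 0.64). C11 was therefore past the fold in both sexes, whereas the interval of C12 was above 0 in males (0.53, 0.20 to 0.88) and included 0 in females. Whether the strain difference of C12 differs between the sexes was not tested, as no replicate values were available. The B6 reads were aligned to mm9 and the CAST reads to a genome carrying CAST variants, and the part of this step in the strain ratios was not tested.

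Between the sexes, few shared regions were past the fold. In B6, C5 was higher in males (log2 ratio 0.67, 0.14 to 1.27) and C11 was lower (−0.62, −1.22 to −0.03), each 1 of 10 shared regions. The C5 ratio again compares different points, as the female B6 peak ended before the male B6 summit at position 164784276. Over all regions shared by the B6 lists, 2.62% were higher and 2.6% were lower past the fold. Before centring, the B6 ratio of C5 was 2.1 and still past 1.5-fold, whereas that of C11 was 0.858 and was not. In CAST, C1 at the Fmo4 start was higher in males (0.69, 0.13 to 1.36), 1 of 16 shared regions (3.31% of all), and 0 were lower (2.56%). The interval of C5 in CAST included 0 (0.28, −0.18 to 0.80), as did that of C11 (−0.29, −0.57 to 0.00). The Fmo5 window had no region past the fold in either strain on the centred ratio of fold enrichments, with centred log2 ratios from −0.26 to 0.03 in B6 and from −0.21 to 0.14 in CAST. Before centring, its B6 ratios were all above 1, from 1.1 to 1.34. On the excess of reads over background, F2 was past the fold in B6 with C5, both higher in males (log2 ratios 0.62 and 0.87), and C11 was lower (−1.31), where 6.19% of all shared regions were higher and 11.2% lower. In CAST the same measure put C1 higher (0.76) and C11 lower (−0.67), where 7.02% of all shared regions were higher and 10.2% lower.

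**Figure D4:**
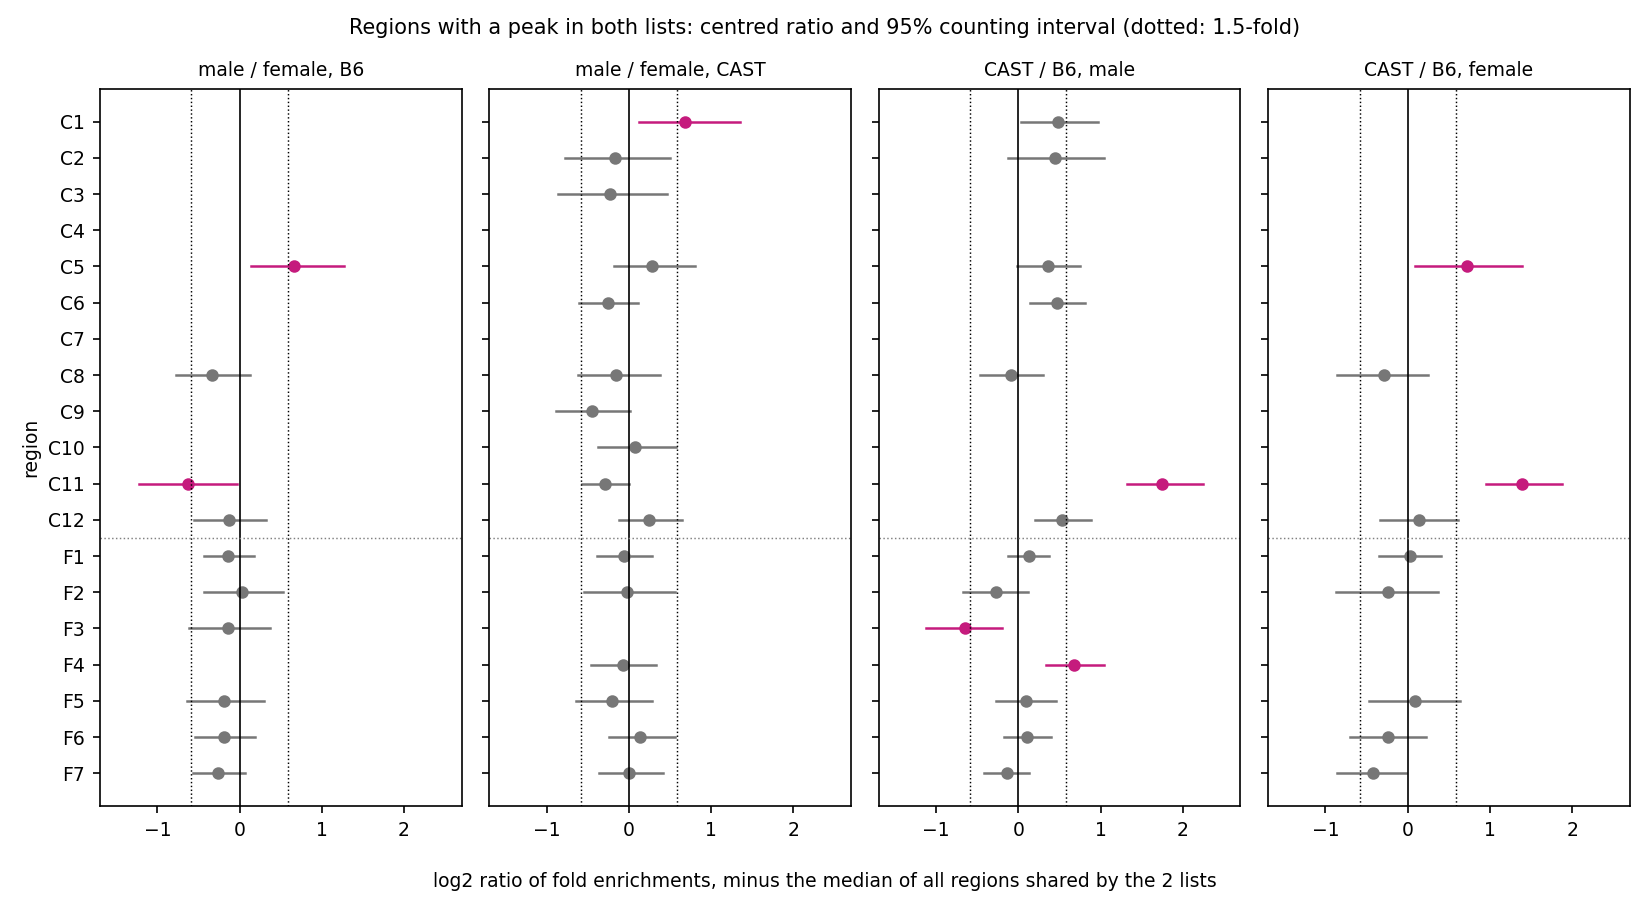
Centred log2 ratios of fold enrichment with 95% counting intervals for regions with a peak in both lists of a comparison, in 4 panels (male over female in B6 and CAST, CAST over B6 in males and females). The solid line is the median of all shared regions, dotted lines mark 1.5-fold and coloured points are past it; C11 stands at 1.74 and 1.39 in the strain panels.

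On chromosome 1 the median peak width was highest in CAST males (646 bp over 12 peaks) and lowest in B6 females (442 bp over 4 peaks), and in the Fmo5 window the medians ran from 565 bp in B6 females to 829 bp in CAST males. Summits of a region lay 14 bp apart at C9, 56 bp at C6, 77 bp at C11 and 91 bp at C12, but 217 bp at C2 and 287 bp at F5, where the female B6 summit lay 32 bp downstream of a start and the others 93 to 176 bp upstream.

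The sequence within 150 bp of the male CAST summit of each region was searched on both strands for short core motifs of liver transcription factors. The STAT5 core TTCNNNGAA, bound by the growth hormone-activated factor STAT5, was found in 5 of 19 regions (26.3%), against 10.6% of all male CAST peaks. All 5 lay on chromosome 1 (C2, C3, C5, C9 and C10), and they included C3, C9 and C10, the regions listed in CAST alone in both sexes. The share with these letters among all regions listed in CAST alone was not taken. The matches lay 31 to 39 bp to the right of the summit in C3 and 83 to 91 bp to the left in C9, as seen in the sequences shown above, and C10 held 2 matches, TTCATGGAA and TTCCAAGAA. As the letters are those of the B6 reference, a match says nothing of the CAST allele.

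Other motifs were found at shares below or near those of all peaks, or in too few regions to describe. The FOXA core TGTTTAC was in C2 and C11 (10.5% against 6.39%), and in C11 it lay 48 to 54 bp from the summit. The NFI core TTGGCA was in C6 and C11 (10.5% against 22.1%), the C/EBP core TTGNNCAA in C1 (5.26% against 10%) and the CTCF core CAGGGGGC in F7 (5.26% against 2.08%). The letters of HNF4 (CAAAGTCCA), HNF1 (GTTAATNAT) and HNF6 and CUX2 (ATCGAT) were in 0 of the 19 windows, against 1.84%, 2.13% and 1.91% of all peaks, which says only that these letters are not there. F4 held none of the motifs searched.

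As a setting for these genes, other enzymes of flavin- or NADPH-dependent oxidation and other family members were counted for a start-site DHS. Of 25 genes listed, 23 were found in the annotation, and 21 had a start-site DHS in B6 males, 21 in B6 females, 21 in CAST males and 20 in CAST females. Over 22380 protein-coding genes, the shares were 54.1%, 49.1%, 53.3% and 46.3% in the same order. Por, the reductase that passes electrons from NADPH to cytochromes P450, had start-site fold enrichments of 12, 10.3, 12.9 and 11.3. Those without a peak in any list were Dao, a D-amino acid oxidase, and Fmo9, another member of the family. Aox3, an aldehyde oxidase, was without a peak in CAST females only, at 2.99, 2.45 and 2.74 in the other 3 lists.

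The strongest start-site peak of each gene, with the internal start sites of Fmo1 included, was 4.32, 3.27, 6.29 and 6.33 for Fmo1, 5.31, 4.39, 8.10 and 5.72 for Fmo2, and 4.39, 3.79, 5.0 and 3.82 for Fmo5, in the order male B6, female B6, male CAST and female CAST. The Fmo1 value in B6 females is that of C8 at the upstream start, and the other 3 are those of C6 at the internal starts, so the Fmo1 values and the genes most like them mix both sites. The Fmo5 values are those of F6, which reaches within 2.5 kb of its starts. Fmo2 was highest in every list but female CAST, where Fmo1 was highest. Fmo4, with no peak in B6 females, was lowest in B6 males and female CAST. The autosomal genes with the most similar set of 4 values, by distance on the log2 scale with 1 in place of a missing peak, were Car3 (0.13), Il15ra (0.13) and Zfp791 (0.17) for Fmo1 and Pde9a (0.06), Agpat9 (0.08) and Ccdc91 (0.09) for Fmo2. For Fmo4 they were Zfp9 (0.05), Zswim5 (0.14) and Zfp454 (0.16), and for Fmo5 they were Ldb1 (0.07), Tle6 (0.08) and Eri1 (0.09). Car3 encodes carbonic anhydrase III, with start-site fold enrichments of 4.32, 3.22, 6.72 and 5.99. With 4 values per gene, such likeness is a description of these lists.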

How the data were processed

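DNase-seq libraries of liver nuclei were grouped by sex and strain from their titles. The authors aligned uniquely mapped reads with Bowtie2, B6 reads to mm9 and CAST reads to mm9 carrying CAST variants, and converted CAST coordinates back to mm9. They merged 4 libraries per group, called peaks with MACS2 and removed blacklisted regions and peaks made of duplicate reads. The deposited lists give per peak the fold enrichment (a ratio of summit pileup to local background), the −log10 p-value and −log10 q-value, a score derived from the q-value and the summit. These values were made separately in each list, so depth and background affect which peaks are listed.

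From these values the whole-read summit pileup and its background were recovered, with the pseudocount of 1 that MACS2 adds (whole to within 0.02 for 99.9% of pileups in male B6, the lowest share). Exact Poisson intervals and, for ratios, conditional binomial intervals (95%) were taken from the pileups with the background held fixed. Peaks overlapping by 1 bp were joined with Python 3.11.15, pandas 2.3.3, numpy 2.4.6 and scipy 1.17.1, and plotted with matplotlib 3.10.9. Gene models were those of GENCODE for mm9, and coordinates count from 1. The members, gene lists and motifs were chosen with earlier results of these data known. All regions of all 4 genes were named, with the start-site region and the strongest region of each gene given in full. Joining and recovery were tested on simulated data. RNA was not analysed here. Cyb5a and Fmo6 matched no gene of the annotation.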

Additional observations from a re-analysis of the deposited data

How the results depend on the processing

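Leaving out single replicates was not possible. No paired analysis was possible because the libraries of a group were pooled into 1 list. Of 75 alternative values of the counts, 61 were within 1.5 times of the reported count and 14 were not. Shares of all regions were not taken at a fold of 2, without centring, or for other windows and rules of joining. They were also not taken for depth-scaled and equal-size lists. Of 98 alternative ratios of named regions, 12 moved beyond their counting interval. The sign changed in 25, 16 without centring and 9 on the excess of reads over background, and 0 of these had been past the fold. Depth-scaled lists, a window of 10 kb and joining peaks within 500 bp left every count within 1.5 times, the limit included. Single-sex regions in CAST (3) became 5 when peaks had to share 50% of each other's width, 5 at a −log10 q of at least 10, 1 in lists of equal size and 7 with a window of 50 kb. At a −log10 q of at least 10, the female B6 list held 6 regions, single-sex regions in B6 numbered 8 and regions in all 4 lists numbered 4. Without centring, 1 region differed past 1.5-fold between the sexes in B6. On the excess of reads over background, 2 regions were past the fold between the sexes in CAST and 8 between the strains in males. At a fold of 2, the counts were 0 between the sexes in B6, 0 between the sexes in CAST, 1 between the strains in males (C11) and 1 in females (C11). The cause of these changes was not tested, other than that a stricter threshold keeps fewer peaks. The female CAST list had the lowest genome-wide background, 7.94 reads, and the part of its depth in these counts was not tested.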
